A study of Gallus gallus with 6 samples.

Results

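Motile cilia are the beating hairs of ciliated epithelia, and the same axoneme drives the sperm tail. In the axoneme, dynein motors on a ring of doublet microtubules slide the doublets against each other, radial spokes and a central pair of microtubules control the beat, and tektins and related proteins stiffen the doublets. In the hen, ciliated cells stand beside the secretory cells in the lining of the oviduct, the duct that carries the egg. The genes described here were chosen by name: every probe set whose only gene symbol in the platform's annotation starts with DNAH, DNAI, DNALI, CFAP, TEKT or RSPH, or is one of 21 listed cilium genes. This gave 141 probe sets of 63 genes, out of 38439 probe sets on the array that are not controls. Of the listed genes, CCDC65 and STK33 were not matched to a probe set and are not analysed here. The names chosen by prefix take in broadly expressed genes such as CFAP20, CFAP36, CFAP97 and CFAP410 as well as genes of the beating axoneme.

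Whole ovary RNA from 6 hens was hybridised to Affymetrix chicken arrays, 1 array per hen. The 3 cancer hens (4, LB14 and LB11) had ovarian tumours, either seen at necropsy within the ovary or with seeding in the abdomen; which hen had which stage is not stated in the labels. The 3 Normal hens (36, LB3 and LB22) showed no sign of ovarian cancer. Per the series' design text, cancer and Normal hens were of matching age and state of lay; no genotype, strain, exact age or treatment is stated there. The comparison asks which transcripts differ between ovaries with tumours and Normal ovaries. Values are the authors' signal intensities, on a linear scale set to the same mean on each array, and the small number of arrays limits the precision of every value. In RNA from whole ovaries, fewer cells of a type and less RNA per cell cannot be told apart.

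None of the motile cilia genes differed between cancer and Normal ovaries past the threshold (limma, adjusted p under 0.05 over all probe sets). Among all probe sets the test called 38 higher in cancer (0.0989%) and 6 lower (0.0156%), and among the 141 motile cilia probe sets it called 0 in either direction. At an unadjusted p under 0.05, 8 motile cilia probe sets were higher (5.67%, against 4.41% of all probe sets) and 3 were lower (2.13%, against 3.9%), where 8.32% of all probe sets passed in either direction. Of these, 7 of the 8 higher and 0 of the 3 lower were above the background limit, given below, on all 3 arrays of a group. The 3 lower values are therefore readings at or near background and are not read as decreases. At an adjusted p under 0.10 the members' count was still 0, against 0.161% of all probe sets higher and 0.0364% lower. The lowest adjusted p was 0.185, for CAPSL. The median log2 difference, cancer minus Normal, was 0.05 over the 141 probe sets and 0.02 over all 38439. The quartiles of the members were -0.14 and 0.38, and 77 of 141 were above 0 (54.6%, against 52.1% of all).

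Many of these probe sets were dim. Each array's background limit, taken from 59 control probe sets whose target RNA was not spiked in, lay between 25.5 and 44.6. The share of motile cilia probe sets above it was 60.3%, 55.3% and 54.6% in cancer ovaries 4, LB14 and LB11, against 47.5%, 53.2% and 49.6% in Normal ovaries 36, LB3 and LB22. Over all probe sets the share ran from 70.2% to 76.1% in cancer and from 68.2% to 72.2% in Normal ovaries, so a smaller share of the motile cilia probe sets than of the array as a whole was above background in both groups. The lowest limit, 25.5, was that of tumour 4, which also had the highest share. With the limit at the brightest of the same controls, the shares were 29.1% to 51.1% in cancer and 29.1% to 38.3% in Normal ovaries.

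**Figure D1:**
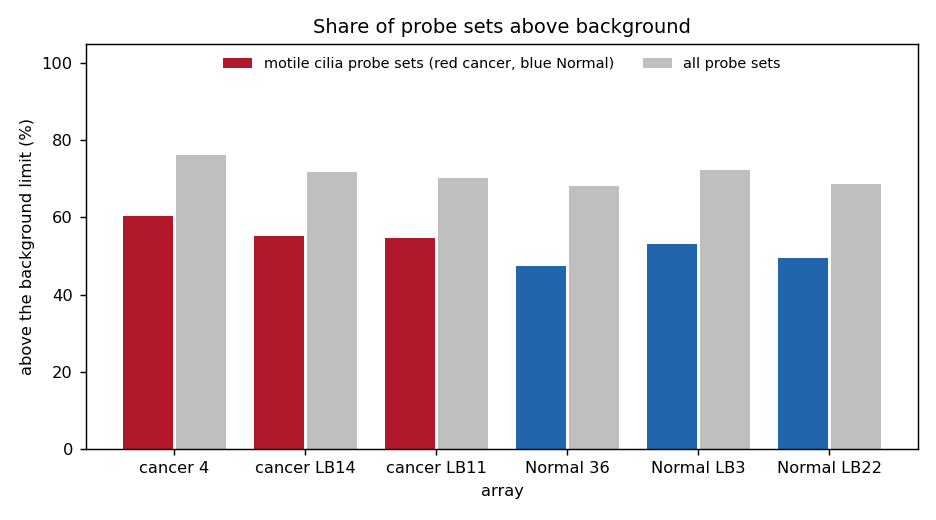
Share of probe sets above the background limit (%, vertical axis) on each of the 6 arrays, for the 141 motile cilia probe sets (red in cancer, blue in Normal) and for all probe sets (grey). On each array the share of motile cilia probe sets, from 47.5% to 60.3%, is below that of all probe sets.

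Of the 141 probe sets, 54 were above the limit on all 6 arrays, 71 on all 3 arrays of at least 1 group, and 42 on none. These 71 come from 45 genes. The 10 genes with no signal above the limit on any array were CFAP61, CFAP73, CFAP77, CFAP100, DNAH5, DNAH5L, DNAI2, IQCG, RSPH1 and TEKT5, and for these the arrays give only an upper bound. For 36 of the 71 probe sets (50.7%, against 59.6% of all probe sets above the limit in a group) the 95% interval of the log2 difference lay between -1 and 1, so a change of more than 2-fold on the shifted scale log2(signal + 16) was outside the interval; for the others the hens varied too much, or the difference was too large, to say so. Among probe sets above the limit the median SD between hens was 0.373 in cancer and 0.265 in Normal ovaries on the log2 scale for the motile cilia genes, against 0.344 in cancer and 0.225 in Normal ovaries for all genes.

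**Figure D2:**
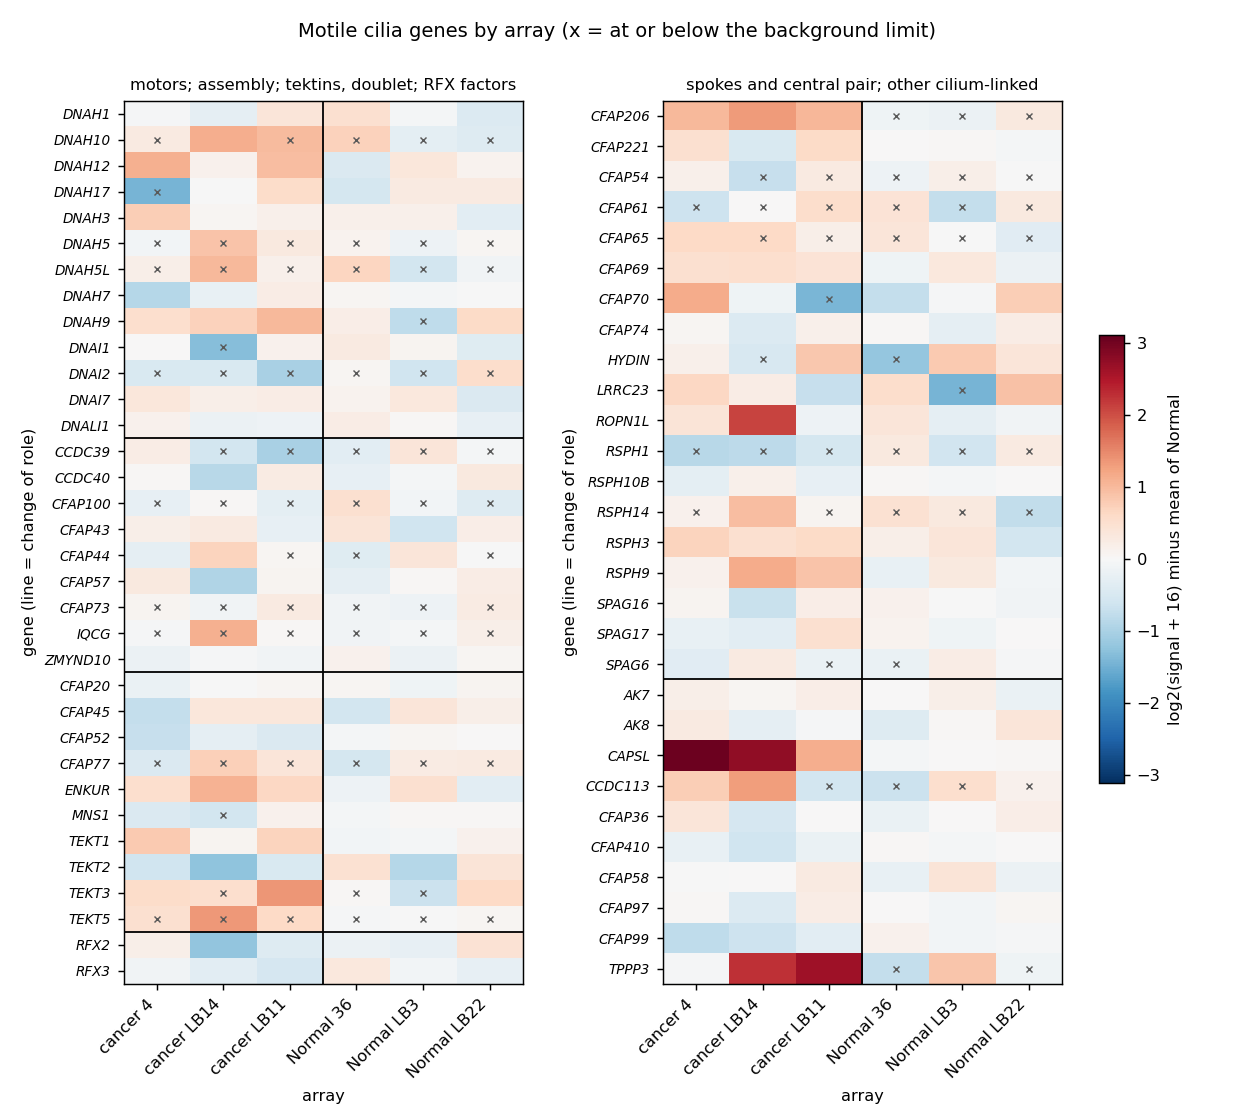
Signal of the 63 motile cilia genes on the 6 arrays, as log2(signal + 16) minus the mean of the 3 Normal arrays (colour), with genes in rows grouped by role and cancer arrays left of the vertical line. A cross marks a signal at or below that array's background limit; CAPSL is dark in cancer 4 and LB14, TPPP3 in cancer LB14 and LB11, and ROPN1L in cancer LB14.

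The motors of the axoneme were represented by 13 genes with 35 probe sets, of which 16 were below the limit on every array. DNAH12, a heavy chain of the inner dynein arms, had signals of 228, 108 and 204 in cancer ovaries 4, LB14 and LB11, against 67.5, 129 and 107 in Normal ovaries 36, LB3 and LB22. Tumours 4 and LB11 were above all Normal ovaries and tumour LB14 was among them. The log2 difference was 0.72 (SE 0.36, limma adjusted p = 0.666, with 3 hens in each group), and 0.54 on the gene's other probe set. DNAH9, a heavy chain of the outer arms, had 73.2, 86.6 and 109.6 in cancer and 56.1, 20.2 and 78.1 in Normal ovaries on its brightest probe set, where LB3 was below the limit. Its log2 difference was 0.74 (SE 0.41, limma adjusted p = 0.702), and its 8 probe sets ran from -0.76 to 0.92, most of them dim. For the inner-arm chain DNAH7 the signals were 219, 358 and 496 in cancer and 439.9, 401 and 418 in Normal ovaries, which puts Normal hens between the tumours. DNAI1, an intermediate chain of the outer arms, differed by -0.39 (SE 0.44) and DNALI1, a light intermediate chain, by -0.07 (SE 0.30). On 1 of its 5 probe sets DNAH5L, a gene named after a heavy chain, had an unadjusted limma p of 0.00477, but each of its signals there was at or below background, so no fold is given.

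Among genes that assemble, place or regulate the arms, 1 of 19 probe sets had an unadjusted p under 0.05, with the lower values in cancer, where 8.32% of all probe sets passed in either direction. ZMYND10, a factor needed to put dynein arms together in the cytoplasm, had signals of 1018, 1143 and 1078 in cancer, against 1279, 1024 and 1210.3 in Normal ovaries. The groups overlapped, with a log2 difference of -0.11 (95% interval -0.50 to 0.28, limma adjusted p = 0.922). On a dim probe set of this gene, above background in 1 cancer and 1 Normal ovary, the groups did not overlap (log2 difference -0.89, adjusted p = 0.573). CCDC40, part of the ruler that spaces the arms along the doublet, differed by -0.18 (SE 0.30), and its partner CCDC39 was above the limit on 1 array. CFAP43, which helps to tether inner arms, ran from -0.28 to 0.08 over 3 probe sets, all of them above the limit on the 6 arrays. Over the 19 probe sets of this role, the median log2 difference was -0.10.

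Radial spokes and the central pair made the largest role, with 19 genes and 49 probe sets. CFAP206, a protein at the base of a radial spoke in ciliates and mice, had signals of 61.9, 81.3 and 63.2 in cancer, against 19.6, 18.6 and 32.4 in Normal ovaries. All 3 tumours were above their arrays' limits and all 3 Normal ovaries below theirs, so the groups were apart. Measured against these limits, the fold was at least 1.71 in cancer over Normal. With the brightest control as the limit (100.2 in LB14 and 63.5 in LB11), both of these tumours were below it. That setting gives no minimum fold. Its log2 difference of 1.11 (SE 0.32) was not past the threshold (limma adjusted p = 0.36), and the gene has 1 probe set. Of the 141 probe sets, 12 were higher without overlap (8.51%, against 6.88% of all probe sets) and 6 lower (4.26%, against 6.4%).

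ROPN1L, a ropporin-like protein of the spoke stalk, was high in 1 tumour, with 125, 439.9 and 80.2 in cancer, against 124, 72.6 and 82.9 in Normal ovaries. Tumours 4 and LB11 lay in or near the Normal range, and the log2 difference of 0.78 (SE 0.54, limma adjusted p = 0.79) rested on LB14, without which it was 0.12. RSPH9, of the spoke head, had 60.5, 139 and 111 in cancer and 43.5, 70.3 and 49.4 in Normal ovaries, with tumour 4 inside the Normal range (log2 difference 0.72, SE 0.37, adjusted p = 0.671). Its other, dimmer probe sets differed by -0.28 and 0.22. RSPH3, of the spoke stalk, had 126, 107 and 116 in cancer and 84.1, 99.0 and 43.3 in Normal ovaries, without overlap and with a log2 difference of 0.59 (SE 0.34, adjusted p = 0.724).

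In the central pair, CFAP69 had signals of 1228, 1248 and 1165 in cancer, against 786, 1092 and 755 in Normal ovaries. The tumours were alike and above each Normal hen, and the log2 difference was 0.48 (SE 0.20, limma adjusted p = 0.561). Its 5 other probe sets differed by -0.25 to 0.61, of which 1 more was free of overlap. CFAP221 had 2582, 1319 and 2774 in cancer and 1852, 1880 and 1749 in Normal ovaries, so that tumour LB14 was below all Normal hens and the other tumours above them. HYDIN, a very large central pair protein, was above the limit on 2 arrays of each group (46.3, 23.4 and 83.1 in cancer, 8.29, 81.5 and 56.4 in Normal ovaries). Its log2 difference of 0.17 has a 95% interval from -1.10 to 1.44. SPAG6, a marker of the central pair, had 35.7, 63.5 and 41.5 in cancer and 41.6, 61.3 and 48.3 in Normal ovaries, a log2 difference of -0.09 (SE 0.33); its other 3 probe sets differed by 0.34 to 0.55. SPAG16 and SPAG17, of the same structure, differed by -0.14 and -0.02 on their brightest probe sets. Their dimmer probe sets differed by 0.16 for SPAG16 and by 0.03 and 0.32 for SPAG17. The last of these had 39.2, 44.0 and 54.6 in cancer and 30.7, 38.6 and 31.1 in Normal ovaries. There the groups did not overlap, and all 3 Normal signals were at or below their limits.

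Tektins and other doublet proteins include 10 genes. TEKT1, a filament protein of the doublet wall, had signals of 1402, 842 and 1288 in cancer, against 756, 757 and 879.6 in Normal ovaries. Tumours 4 and LB11 were above all Normal hens, and tumour LB14 was below Normal LB22. The log2 difference was 0.52 (SE 0.23, limma adjusted p = 0.585), and the other probe sets of TEKT1 differed by 0.35 and 0.74. TEKT2, a tektin of the same filaments, went the other way in value, with 125, 75.3 and 139.9 in cancer and 286, 103 and 270.1 in Normal ovaries. Normal LB3 lay inside the cancer range (log2 difference -0.78, SE 0.42, adjusted p = 0.687). ENKUR, the gene of enkurin, which lies inside the doublet, had 466, 690.3 and 511 in cancer, against 283, 457 and 249.7 in Normal ovaries. The groups did not overlap, although Normal LB3 came close to tumour 4, and the log2 difference was 0.75 (SE 0.28, adjusted p = 0.5). The 2 other ENKUR probe sets differed by 0.34 and 0.52. CFAP20, which joins the tubules of a doublet and is expressed in many tissues, had 5050.2, 5840.1 and 6152 in cancer and 6079, 5302 and 6232 in Normal ovaries (log2 difference -0.05, SE 0.16).

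**Figure D3:**
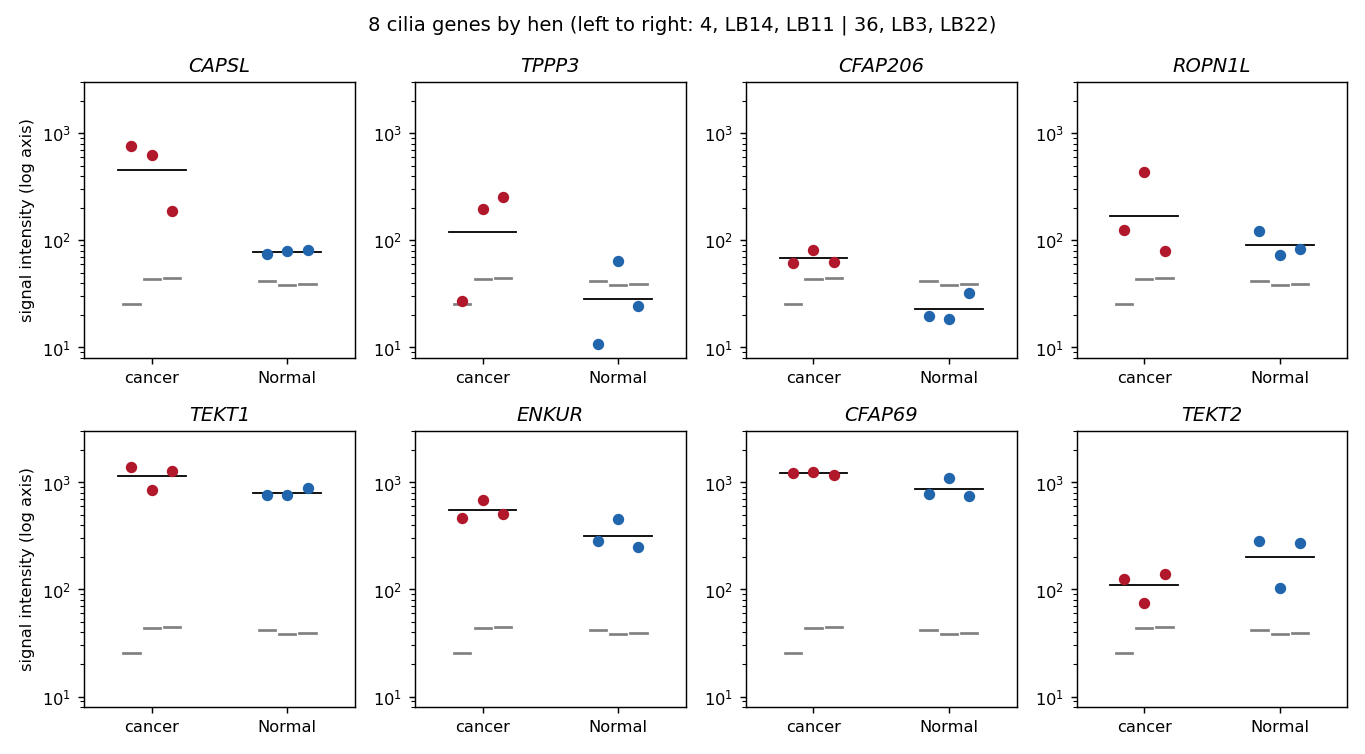
Signal intensity (log axis) of 8 motile cilia genes in each hen, cancer (red) left of Normal (blue); the black line is the group's mean of log2(signal + 16), turned back to signal, and each grey dash is that array's background limit. CAPSL separates the groups with a spread among tumours from 190.2 to 757, and TPPP3, ROPN1L, TEKT1 and TEKT2 have tumours inside the Normal range.

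Among other cilium-linked genes, CAPSL had the largest difference of all members. It encodes a small calcium-binding protein related to calcyphosine, and its signals were 757, 622 and 190.2 in cancer ovaries 4, LB14 and LB11, against 74.8, 79.8 and 81.0 in Normal ovaries. The Normal hens were alike, each tumour was above them, and tumour LB11 was the lowest of the 3. The means were 523 ± 296 in cancer and 78.5 ± 3.31 in Normal ovaries (SD, n = 3 each). The log2 difference was 2.30 (SE 0.46, 95% interval 1.26 to 3.35) and was not past the threshold (limma adjusted p = 0.185, rank 151 of 38439 by p). Leaving out LB11, its lowest tumour, had to raise the difference, which became 2.89 (limma adjusted p = 0.00747). In the LB hens alone it was 1.91 (limma adjusted p = 0.626). Over 18 alternatives the adjusted p ran up to 0.681, and the omission of LB11 was the only 1 to call CAPSL. This call is therefore no added support. The 2 other probe sets of CAPSL did not show the difference: they were dim, with log2 differences of 0.11 and -0.39. The mean over the 3 probe sets differed by 0.67.

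TPPP3, a tubulin-binding protein known as a marker of ciliated cells in mammals, had 26.9, 197 and 256 in cancer, against 10.8, 64.8 and 24.3 in Normal ovaries. Tumours LB14 and LB11 were above all Normal hens, while tumour 4 was just above its limit and below Normal LB3. The log2 difference was 1.61 (SE 0.70, limma adjusted p = 0.591). CFAP58, named here after its values were seen, had 1 of 5 probe sets with 28.3, 73.2 and 95.2 in cancer and 7.59, 5.83 and 6.07 in Normal ovaries, where all 3 Normal signals were below background. There the fold was at least 1.46 against the background limits, with tumour 4 just above its limit of 25.5 (log2 difference 1.76, SE 0.38, limma adjusted p = 0.221). With the brightest control as the limit (34.8 in tumour 4 and 100.2 in LB14), both of these tumours were below it. That setting gives no minimum fold. The other 4 probe sets differed by -0.01 to 0.47. CFAP99 had 60.4, 69.7 and 89 in cancer and 129.7, 108 and 113 in Normal ovaries, lower without overlap (log2 difference -0.59, SE 0.30, adjusted p = 0.668). CFAP410, a protein at the base of the cilium that is also expressed outside ciliated tissue, had 2736, 2106 and 2794 in cancer and 3311, 3117 and 3289.6 in Normal ovaries, with a log2 difference of -0.36 (SE 0.17, adjusted p = 0.637). CFAP36 and CFAP97 both differed by -0.05, with 95% intervals of -0.61 to 0.50 and -0.50 to 0.39.

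**Figure D4:**
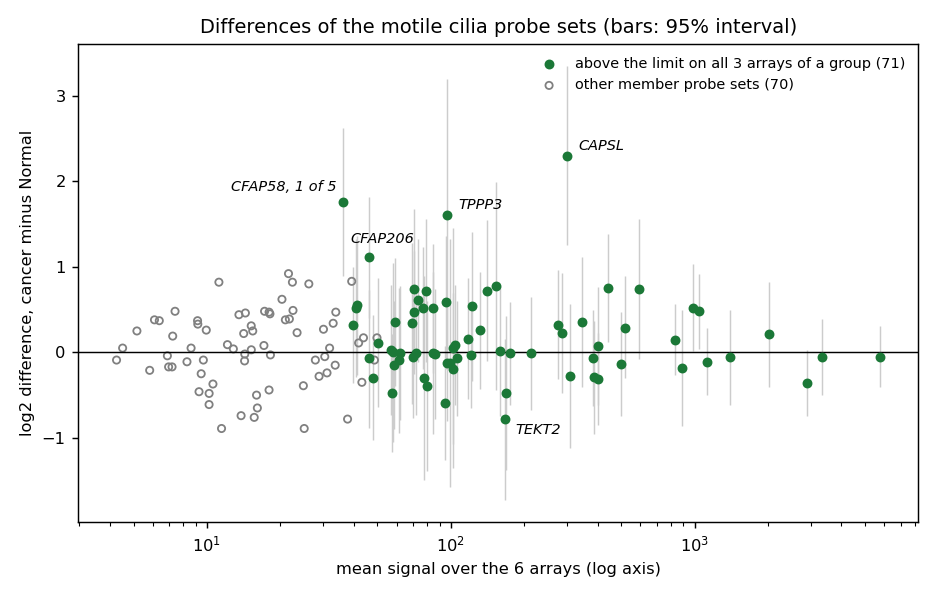
Log2 difference of each of the 141 motile cilia probe sets, cancer minus Normal (vertical axis), against its mean signal over the 6 arrays (log axis); filled points are the 71 above the background limit on all 3 arrays of a group, with 95% intervals from limma, and open points are the other 70. Of the 141 points, 4 lie beyond 1 in either direction (2.84%, against 3.8% of all probe sets), and CAPSL is the highest at 2.30. All 4 are filled points (5.63% of the 71, against 4.41% of all probe sets above the limit in a group). TPPP3, CFAP206 and the labelled CFAP58 probe set are filled through their cancer arrays alone.

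The transcription factors RFX2 and RFX3, which switch on cilium genes, had lower values in cancer within the spread of the hens. RFX2 had 219, 72.0 and 140.1 in cancer and 166, 156 and 263 in Normal ovaries, a log2 difference of -0.48 (95% interval -1.38 to 0.42, limma adjusted p = 0.829). RFX3 had 407, 349 and 304 in cancer and 560.4, 411 and 369 in Normal ovaries, a difference of -0.31 (95% interval -0.85 to 0.23, adjusted p = 0.816). FOXJ1, the main regulator of motile cilia, is not analysed here because it was not matched to a probe set.

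Named genes with higher values in tumours did not share an order of the tumours. CAPSL was highest in tumour 4, ROPN1L and ENKUR in LB14, and TPPP3 in LB11. The 43 genes whose brightest probe set was above the limit on all arrays of a group include genes with lower values in cancer. Among these 43, the highest of the 3 tumours was 4 for 14 genes, LB14 for 10 and LB11 for 19.

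As an average over the 63 genes, log2(signal + 16) was 7.10, 7.14 and 7.17 in cancer ovaries 4, LB14 and LB11, against 6.97, 6.96 and 7.03 in Normal ovaries 36, LB3 and LB22. The mean over all probe sets was 7.35, 7.48 and 7.45 in cancer and 7.37, 7.44 and 7.35 in Normal ovaries. The cilia mean was thus above every Normal ovary in each tumour, with a mean difference of 0.15. The median difference over these 63 genes was 0.02, and 32 of them were above 0 (50.8%, against 52.1% of all probe sets). For marker lists the mean difference was 6.25 for 10 oviduct secretory genes, 2.27 for 8 epithelial genes and 0.82 for 2 male germ line genes. It was 0.14 for 4 smooth muscle genes, which ran from -0.59 (ACTA2) to 0.86 (MYH11). For 3 genes of ovarian surface and mesothelium it was -0.31, with LRRN4 at -0.71 and the dim CALB2 and MSLN at 0.0 and -0.2. The mean difference was -0.41 for 10 oocyte, egg coat and germ cell genes, and -1.99 for 10 follicle cell genes. Markers of the oviduct's secretory cells, such as the ovalbumin gene OVAL, averaged 11.79, 13.06 and 12.11 in cancer, against 6.08, 6.14 and 5.97 in Normal ovaries. On this list all 10 markers were above the limit in each tumour, 4 or 5 of 10 were in each Normal ovary, and 9 were past the limma threshold; the list was drawn up with its values known and is no independent evidence. In a list of 8 epithelial genes, 3 were past it, CDH1, CLDN3 and CLDN10, with list means of 11.44, 11.86 and 10.82 in cancer and 8.93, 9.13 and 9.26 in Normal ovaries. The other epithelial genes had log2 differences from -0.35 to 0.55. Beside these lists the 63 cilia genes were mixed, with quartiles of the log2 difference at -0.15 and 0.46. The lowest was TEKT2 at -0.78, and the highest were CAPSL at 2.30, TPPP3 at 1.61 and CFAP206 at 1.11. In tumour 4, where the oviduct list averaged 11.79, TPPP3 was at 26.9, below the 64.8 of Normal LB3. CAPSL in the same tumour was at 757, above the 81.0 of the highest Normal ovary. The part of oviduct-type epithelium in the cilia values was not tested.

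**Figure D5:**
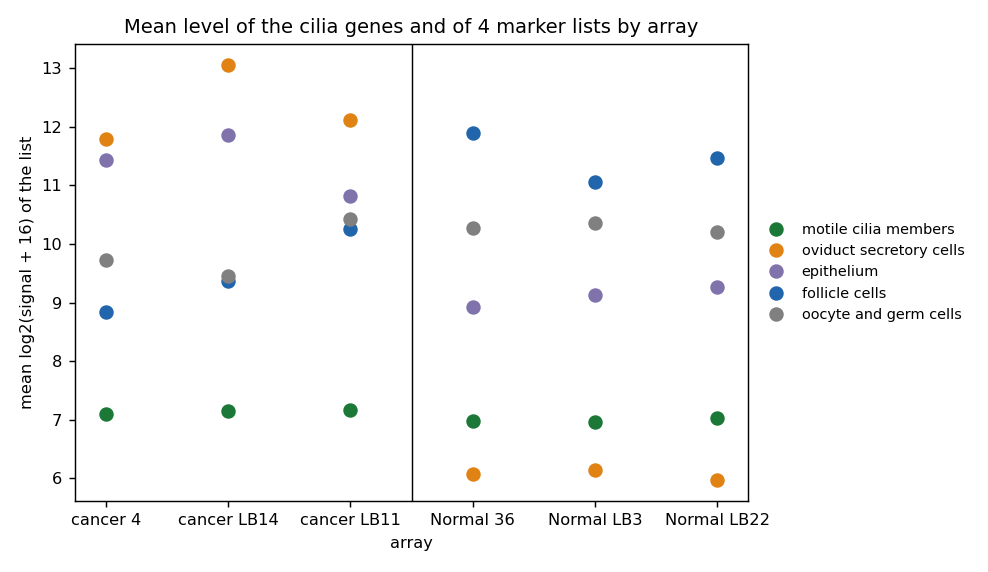
Mean log2(signal + 16) of the 63 motile cilia genes and of 4 marker lists on each array, cancer left of the line and Normal right of it. The motile cilia mean lies between 6.96 and 7.17 on the 6 arrays, whereas the oviduct secretory list lies between 11.79 and 13.06 in cancer and between 5.97 and 6.14 in Normal ovaries.

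Ovarian markers were present in both groups. The list of 10 genes of steroid-making follicle cells averaged 8.84, 9.36 and 10.26 in cancer ovaries 4, LB14 and LB11. In Normal ovaries 36, LB3 and LB22 it averaged 11.89, 11.06 and 11.47. On each array 9 or 10 of 10 were above the limit. Each gene of this list was lower in cancer, by log2 differences from -3.44 (STAR) to -0.51 (FOXL2), with 0 past the threshold. The lowest limma adjusted p was 0.0935, for STAR and HSD3B1. Of 10 oocyte, egg coat and germ cell genes, 9 or 10 were above the limit on each array. Only ZP3, a gene of the egg coat, was lower past the threshold (log2 difference -3.52, limma adjusted p = 0.0103). The other genes of the list ran from -1.09 (ZP1, also of the egg coat) to 0.36 (DAZL). Which cells express ZP3 was not tested, so its lower value is not read as a loss of oocytes. SPATA4 and ODF1, the 2 sperm-line markers that were matched, differed by 0.75 (limma adjusted p = 0.615) and 0.89 (limma adjusted p = 0.619). ODF1 was dim, with 44.7, 25.5 and 52.9 in cancer ovaries 4, LB14 and LB11. It was below the limit in tumour LB14 and in all 3 Normal ovaries.

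Other genes of the cilium outside the members were read from the same fit. Of 108 genes in 5 lists, limma called 0 in either direction, against 0.114% of all probe sets. At an unadjusted p under 0.05, 5 of the 108 were higher and 4 lower, near the shares over all probe sets of 4.41% and 3.9%, and the median log2 difference was 0.05, against 0.02 over all probe sets. Among regulators of ciliation, JAG1, a Notch ligand, had 111, 163 and 80.7 in cancer and 83.4, 44.1 and 29.2 in Normal ovaries (log2 difference 1.01, SE 0.40, limma adjusted p = 0.547). Its other probe sets differed by 0.83, on a dim one, and by -0.06, on one above the limit on every array. PLK4, the kinase that starts centriole duplication, had 268, 323 and 288 in cancer and 534, 347 and 410.4 in Normal ovaries, a difference of -0.51 (SE 0.23) without overlap.

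The 20 dynein assembly and docking genes had a median of -0.04. They held all 4 of the lower genes with an unadjusted limma p under 0.05, against 3.9% of all probe sets, and 0 higher. The list was not tested as a set. These were DNAAF8, DNAAF5, DYNLT1 (log2 difference -0.37, limma adjusted p = 0.576) and ARMC4 (-1.08, limma adjusted p = 0.349). ARMC4 was dim, above the limit in 1 Normal ovary and 0 tumours. DNAAF8, a dynein assembly factor, had 75.2, 1096 and 31.1 in cancer, against 1443, 1649.9 and 1095 in Normal ovaries. Tumours 4 and LB11 were far below the Normal hens, LB11 below its limit, while tumour LB14 lay at the lowest Normal value. The log2 difference of -3.05 (SE 0.95) was not past the threshold (limma adjusted p = 0.402). Leaving out LB14, the tumour at the Normal level, had to widen it, to -4.41 (limma adjusted p = 0.0033). In the LB hens alone it was -2.57 (limma adjusted p = 0.763). Over 18 alternatives the adjusted p ran up to 0.86, and only the omission of LB14 gave a call, which is no added support. DNAAF5, another assembly factor, had 1350.2, 867 and 1049.5 in cancer and 1546, 1403 and 1887 in Normal ovaries, lower without overlap (log2 difference -0.57, SE 0.21, adjusted p = 0.506).

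Among 25 other axoneme genes, KIF9, a kinesin of the central pair, had 124, 163 and 133 in cancer, against 89.9, 75.5 and 41.9 in Normal ovaries. Its log2 difference was 0.91 (SE 0.34, limma adjusted p = 0.5) on the brightest of 4 probe sets, and the others differed by -0.37 to 0.43. PIFO, a protein at the base of the cilium in mice, had 154, 155 and 219.5 in cancer and 104.6, 119 and 82.3 in Normal ovaries (log2 difference 0.70, SE 0.29, adjusted p = 0.576). Both genes, named for the 2 largest differences above background on this list, were higher in each tumour than in any Normal hen. Without overlap, 5 of the 25 genes were higher and 0 lower. Over the 5 lists, 10 of 108 genes were higher and 7 lower, against 6.88% and 6.4% of all probe sets. The list was not tested as a set.

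Intraflagellar transport carries cargo in primary and motile cilia alike. Its 27 genes were all above the limit in a group, with log2 differences between -0.42 and 0.31 and a median of -0.02. The extremes at the low end were IFT57 (-0.42, SE 0.30) and TTC26 (-0.42, SE 0.25), and another IFT57 probe set differed by 0.59. The 23 genes of the BBSome and the ciliary gate had a median of 0.08, with B9D1 at -0.47 (SE 0.29) and TMEM67 at 0.64 (SE 0.45), both genes of the gate.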

How the data were processed

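Per probe set, the authors deposited a linear signal intensity, made with GCOS, the Affymetrix software, per the submitters' processing notes, which name no settings. The intensities share one scale, with a 2% trimmed mean of 500.1 on all 6 arrays, and no other normalization was applied here. Labels give the disease state of each hen and no batch.

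All 38439 probe sets that are not controls were compared as log2(signal + 16) with limma 3.58.1 in R 4.3.3 (two-sided, eBayes fitted with a trend on mean signal, p adjusted by Benjamini-Hochberg, threshold 0.05), with no filter on signal; 56 of the 141 members pass a filter at the 40th percentile. A log2 difference on that scale understates the change of dim genes. SEs and intervals are limma's. The background limit is the 95th percentile of 59 control probe sets. A gene is represented by its probe set with the highest mean signal, and levels of different probe sets are not compared. The limma step was tested on simulated arrays, with known log2 increases placed in 200 probe sets per run. It called 3.58% of the increases of 1, 48.7% of those of 2 and 88.2% of those of 4. A count of 0 called therefore does not show that changes of 1 or of 2 were absent. Figures were drawn with matplotlib 3.10.9.

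Symbols are those of the platform annotation; 62 of 63 member genes had their gene ID in a RefSeq table of the assembly GRCg7b, with the same symbol. Members, lists, roles and tests were chosen with earlier results of these data known. Named by rule were the 12 members with the largest difference above background, the 8 brightest, 7 regulators and markers (FOXJ1 was also listed and was not matched), and 2 genes per list; other genes were named after their values were seen. Promoter motifs and sequences were not analysed here. Alternatives were other pseudocounts (1 and 64), filters, scalings, eBayes settings, weighted arrays, a block for the LB prefix of the titles, a fit to the LB hens, the omission of each hen in turn, and a threshold of 0.10.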

Additional observations from a re-analysis of the deposited data

How the results depend on the processing

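Over all probe sets, the limma counts of 38 higher and 6 lower became 11 and 0 in the LB hens alone (where 1543 higher and 1130 lower had an unadjusted p under 0.05), 23 and 2 without a trend, 24 and 4 when probe sets of a gene were averaged, and 62 and 14 at an adjusted p under 0.10. The lower count was 10 with the filter, with a pseudocount of 1 and with robust eBayes, and 3 with a pseudocount of 64. Leaving out 1 hen gave 20 to 139 higher and 0 to 14 lower, with the maxima without tumour LB11 and the minima without Normal LB22 (where 962 lower had an unadjusted p under 0.05); each omission but that of LB14 moved a count by over 1.5 times, and why LB11 has this effect was not tested. The count of motile cilia probe sets called was 0 in each alternative except without tumour LB11, so it ran from 0 to 1 higher (CAPSL), and 0 lower. Of the genes outside the members, 0 to 1 were called lower when 1 hen was left out (DNAAF8, without LB14). With the limit at the 90th percentile of the controls, the share of members above it was 72.3%, 60.3% and 61.0% in cancer 4, LB14 and LB11 and 51.1%, 59.6% and 58.2% in Normal 36, LB3 and LB22; with the brightest control it was 51.1%, 29.1% and 42.6% in cancer 4, LB14 and LB11 and 31.2%, 38.3% and 29.1% in Normal 36, LB3 and LB22. The members' median difference of 0.05 moved by less than 0.0854, the spread between hens, in each alternative, and was -0.03 with quantile normalization. Of 33 named genes, 27 kept their sign in each alternative. No paired analysis was possible because the groups share no replicate numbers.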
